A study of Mus musculus with 9 samples.

Results

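The mitochondrially encoded genes were taken as all rows of the deposited gene table whose symbol begins with mt-, which gave 37 of the 46958 genes. They were 13 protein-coding genes, 22 transfer RNA (tRNA) genes and 2 ribosomal RNA (rRNA) genes. All 37 lie on the mitochondrial chromosome (MT) of GRCm38. Of them, 9 are on the minus strand, namely 8 tRNA genes and mt-Nd6.

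The study measured RNA in spleen plasma cells, the antibody-secreting cells of the B lineage, in a series whose title concerns the toxicity of a monoclonal free light chain in light chain deposition disease (LCDD). Each library held the cells that beads against CD138 captured from 1 spleen, with a stated purity above 80%. The 3 genotypes were wild type (WT), DH-LMP2A and kFRA, with 3 mice each. All mice were 3 months old, had not been immunized and were of the background mixed C57/BL6x129/SVxBALB/c. DH-LMP2A is known as an allele in which the signalling protein LMP2A is expressed from the heavy-chain locus. kFRA is the genotype that the labels mark as the LCDD group. They do not describe its allele and do not say whether kFRA mice carry the DH-LMP2A allele too. A stranded mRNA kit, which selects poly(A) RNA, was used, with paired-end reads.

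Mitochondria keep a small circular genome that encodes core subunits of the respiratory chain and of the ATP synthase, with the rRNAs and tRNAs needed to translate them. Both strands are transcribed as long precursors, which are cut at the tRNAs that punctuate them, and most of the mRNAs then receive a poly(A) tail. The nucleus encodes all other subunits, the mitochondrial ribosomal proteins, the polymerase and the RNA-processing enzymes. Plasma cells use respiration to support the secretion of immunoglobulin.

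Total counts per library ranged from 15449026 to 21558128, and 3 counts, taken as the floor of detection, were worth 0.139 to 0.194 CPM, the count scaled to a common library total. Immunoglobulin genes took 27.3% to 32.5% of the counts in DH-LMP2A and 43.6% to 55.4% in WT. In kFRA they took 44.0%, 29.2% and 45.4% in replicates 1 to 3, so that kFRA replicate 2 stood apart from the other kFRA libraries. All 8 plasma cell markers were detected in every library, but so were all markers of B cells, T cells, myeloid cells and erythroid cells. The summed CPM of the 8 plasma cell markers was 31070 to 43460 in DH-LMP2A, 18530 to 29460 in kFRA and 18210 to 23350 in WT. That of the 8 erythroid markers was 2566 to 13640 in DH-LMP2A, 1167 to 2807 in kFRA and 39.3 to 341 in WT. The part of these other cells in the mitochondrial values was not tested. In such bulk samples, fewer cells of a type and less RNA per cell cannot be told apart.

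Before any level could be read, the table had to be checked for nuclear copies of the mitochondrial genome. A stretch of chromosome 1 between 24611535 and 24616197, minus strand, holds 7 unprocessed pseudogenes that are at least 99% identical to 7 of the mitochondrial mRNAs. Over the aligned stretch 5 of them had no mismatch, and 2 had 1 mismatch each. The 4 sequences below show in capitals the only 2 bases that differ within the aligned stretches. They are from GENCODE M21, GRCm38, at MT:6390-6423 (plus strand), chr1:24616155-24616188 (minus), MT:9459-9491 (plus) and chr1:24613087-24613119 (minus).
mt-Co1: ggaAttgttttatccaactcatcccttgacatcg
Gm29216: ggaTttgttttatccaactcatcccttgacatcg
mt-Nd3: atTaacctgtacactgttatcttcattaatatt
Gm28438: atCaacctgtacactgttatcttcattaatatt
Counted from 1 at the 5′ end of the mitochondrial transcript, the substitutions from the mitochondrial to the nuclear sequence are A1066T in mt-Co1 and T3C in mt-Nd3. The copy of mt-Co1 covers only its last 483 bases, from 1063 to 1545.

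For 4 mRNAs nearly all counts stood on the copy. These were mt-Co2 and mt-Co3, subunits of cytochrome c oxidase (complex IV), mt-Atp6, the membrane subunit of ATP synthase (complex V) that lines the proton path, and mt-Nd3, a subunit of NADH dehydrogenase (complex I). mt-Co2 had 13 to 51 counts per library, against 16037 to 34777 on its copy Gm28661. mt-Co3 had 16 to 44 counts, against 21131 to 43239 on Gm28437. mt-Atp6 had 4 to 33 counts, against 12741 to 35041 on Gm10925. The rows named for these 3 genes thus held at most 0.176% of the counts of each pair. mt-Nd3 had 20 to 57 counts, against 1125 to 2070 on Gm28438, so its own row held 1.30% to 2.68%.

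The other copies showed the reverse. mt-Nd4, a complex I subunit, had 6123 to 14991 counts and its copy Gm28439 had 6 to 22, although the first 876 bases of mt-Nd4 are identical in both. mt-Nd4l, another complex I subunit, had 870 to 2758 counts and Gm10222 had 1 to 10. mt-Co1, the catalytic subunit of complex IV, was split, with 31527 to 78999 counts on its own row and 22650 to 40573 on Gm29216. The share of the mt-Co1 pair on the mitochondrial row was 52.7% to 66.1%. How the authors treated reads that match several places is not given in the sources used here, and whether any count on a copy came from nuclear RNA was not tested.

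The first 60 bases of mt-Atp6 (MT:7927-7986, plus strand) and of Gm10925 (chr1:24614592-24614651, minus) are shown because no base sets the pair apart. The start codon is in capitals.
mt-Atp6: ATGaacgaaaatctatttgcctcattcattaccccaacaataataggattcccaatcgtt
Gm10925: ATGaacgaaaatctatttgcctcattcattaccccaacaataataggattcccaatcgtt
mt-Atp8, the small accessory subunit of ATP synthase, shares its last 43 bases with the start of mt-Atp6, in capitals in the sequence at MT:7912-7969, plus strand.
mt-Atp8: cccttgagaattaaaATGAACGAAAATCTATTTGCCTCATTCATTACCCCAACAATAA
The mt-Atp8 row had 1 to 6 counts per library. A copy of mt-Atp8 would fall on the 233 bases of chromosome 1 between Gm10925 and Gm28661. The search of GENCODE M21 transcripts found no copy of mt-Atp8, and the genome sequence of that interval was not searched. A further 10 nuclear copies were below 99% identity. Gm13340, 97.6% identical to mt-Co1, had 438 to 1205 counts, and Gm13341, 95.9% identical to mt-Co2, had 352 to 977. Values are given below for the rows as named and, where it matters, with the counts of the near-identical copies added.

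The mitochondrial share of the counts outside immunoglobulin genes was about 1% in every genotype. It was 1.15%, 0.968% and 1.07% in the DH-LMP2A libraries (1.06% ± 0.0922, SD, n = 3). In kFRA it was 0.894%, 1.33% and 0.862% (1.03% ± 0.264, SD, n = 3). In WT it was 1.12%, 1.22% and 0.917% (1.09% ± 0.155, SD, n = 3). The groups overlapped, and kFRA held both the highest library, replicate 2, and the lowest, replicate 3. In exact permutation tests, two-sided, p was 0.9 for kFRA against DH-LMP2A, 0.8 for kFRA against WT and 0.9 for DH-LMP2A against WT, each 0.9 after Benjamini-Hochberg adjustment over the 3. With 3 mice against 3 the smallest p such a test can give is 0.1. The 95% Wilson interval of a single library was narrow beside the spread between mice, for example 1.33% to 1.34% in kFRA replicate 2, and covers counting error only.

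**Figure D1:**
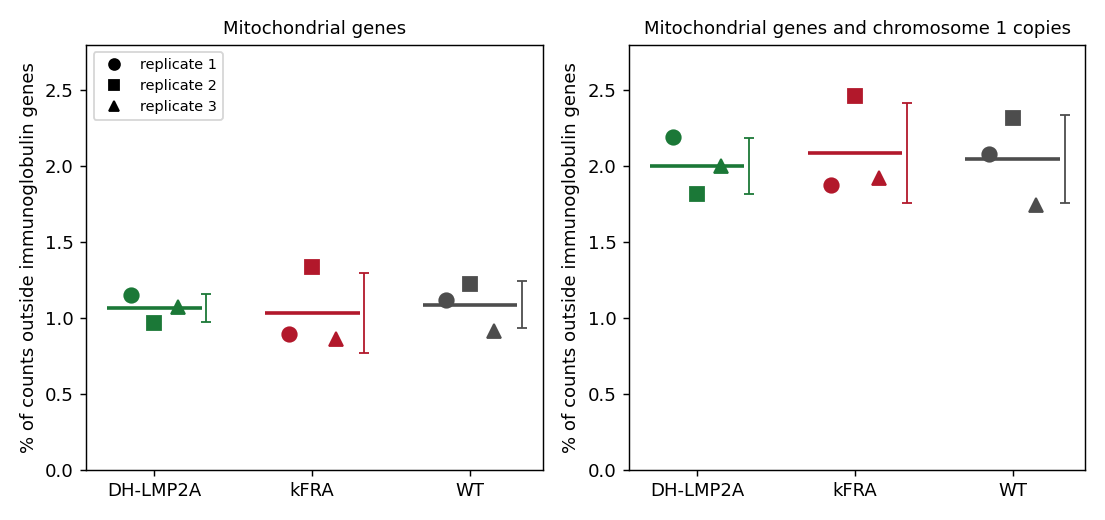
Mitochondrially encoded share of the counts outside immunoglobulin genes, in percent, for each library of the 3 genotypes, for the rows as named and with the 7 near-identical nuclear copies added; points are libraries, horizontal lines are group means and vertical bars are ± SD. The genotypes overlap in both, with means of 1.03% to 1.09% for the rows and 2.00% to 2.09% with the copies.

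With the copies added the share was 2.19%, 1.82% and 2.00% in DH-LMP2A, 1.88%, 2.46% and 1.92% in kFRA and 2.08%, 2.32% and 1.74% in WT. The groups again overlapped, and exact permutation p was 0.8, 1 and 0.8 in the same order of comparisons. Over all assigned counts, immunoglobulin included, the share was 0.754% in DH-LMP2A and 0.556% in WT on average. The DH-LMP2A libraries then lay above the WT libraries without overlap (difference 0.198 percentage points, exact permutation p = 0.1, the smallest possible, adjusted 0.3). That denominator contains the immunoglobulin counts, whose share was lower in DH-LMP2A than in WT, as given above.

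The mRNAs differed widely in level, compared here per kilobase (kb) as CPM per kb after TMM scaling, averaged over the 9 libraries. With the copies added, mt-Co1 stood at 3003 CPM per kb, followed by mt-Co2 at 2062, mt-Co3 at 1983 and mt-Atp6 at 1726. mt-Cytb, the cytochrome b of complex III, stood at 1087. The complex I subunits were lower, with mt-Nd1 at 596.7, mt-Nd4 at 395.9, mt-Nd4l at 318.5, mt-Nd2 at 271.6, mt-Nd5 at 256 and mt-Nd3 with its copy at 242.7. mt-Nd6, the only mRNA of the other strand and known to carry little or no poly(A) tail, was at 21.3. The mRNAs of complexes IV, V and III listed here thus came before those of complex I. The exception is mt-Atp8 of complex V, for which no copy was found to add and whose row stood at 0.778, below every other value here. That row held 1 to 6 counts per library, and 43 of its bases are shared with mt-Atp6. How reads on shared bases were counted is not given in the sources used here. The row is therefore not read as the level of an mRNA. Neighbours in the order such as mt-Co2 and mt-Co3, or mt-Nd2, mt-Nd5 and mt-Nd3, had ranges over libraries that overlapped. The rows as named gave another order, with mt-Co2 at 2.78, mt-Co3 at 1.97, mt-Atp6 at 1.495 and mt-Nd3 at 5.08 CPM per kb.

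**Figure D2:**
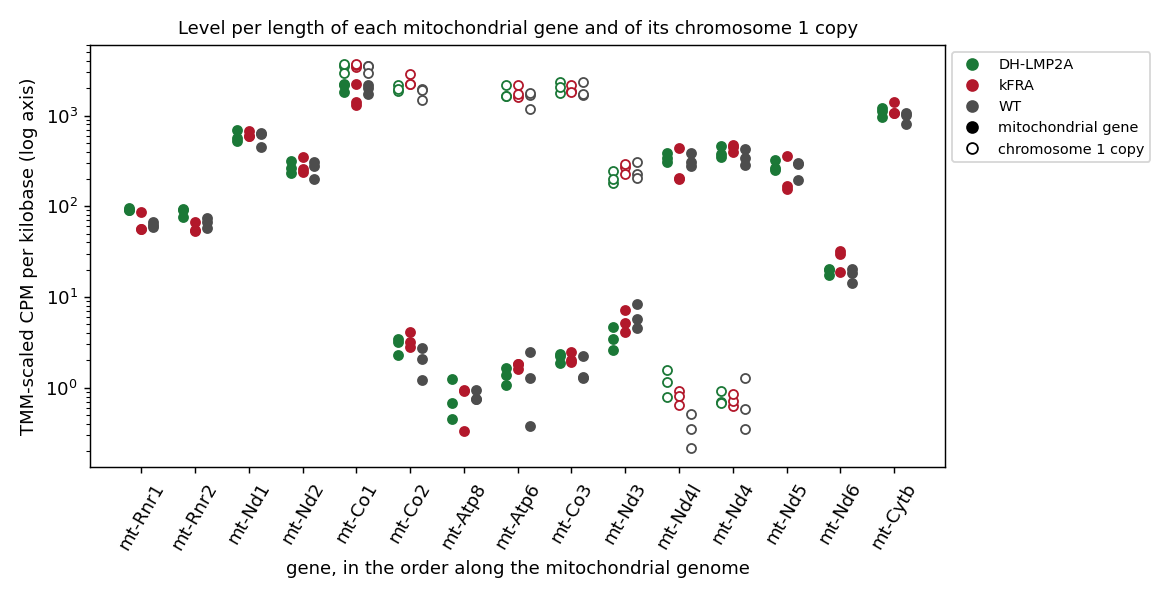
Level in CPM per kb (log axis) of the mitochondrial mRNAs and rRNAs (filled points) and of their near-identical copies on chromosome 1 (open points) in each library, coloured by genotype. For mt-Co2, mt-Co3, mt-Atp6 and mt-Nd3 the copies lie far above the mitochondrial rows, and for mt-Nd4 and mt-Nd4l far below.

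The 2 rRNAs were far below the abundant mRNAs. mt-Rnr1, the RNA of the small mitochondrial ribosomal subunit, was at 74.1 CPM per kb and mt-Rnr2, of the large subunit, at 70.3. These libraries were selected for poly(A), so rRNA and tRNA counts are not amounts of those RNAs in the cells.

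The ends of 3 mRNAs show what polyadenylation adds: mt-Co3, mt-Cytb and mt-Nd4 are encoded with only the first base of the stop codon, in capitals below, and the poly(A) tail is known to complete it. They lie at MT:9361-9390, MT:15259-15288 and MT:11515-11544, plus strand.
mt-Co3: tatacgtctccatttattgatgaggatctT
mt-Cytb: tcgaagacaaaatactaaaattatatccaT
mt-Nd4: gtccaaaactaattacaggcctgacaataT
mt-Nd4 also shares its first 7 bases with the end of mt-Nd4l, in capitals in the sequence at MT:10134-10173, plus strand; the pair is known to be carried by 1 bicistronic mRNA.
mt-Nd4l: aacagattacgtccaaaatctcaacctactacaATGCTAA

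The tRNA genes were hardly counted. Of the 22, 8 had no count in any library and 14 had at least 1, up to 42 counts in a library. Their sum was 39 to 91 counts per library. mt-Tl1, mt-Tw and mt-Tt, the tRNAs for leucine, tryptophan and threonine, were the 3 that passed the filter on low counts. mt-Tl1 had 9 to 42 counts per library, mt-Tw 5 to 22 and mt-Tt 5 to 36, too few to compare genotypes closely.

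In all, 17 of the 37 genes passed that filter and could be tested: 12 mRNAs (all but mt-Atp8), both rRNAs and the 3 tRNAs. The rows of mt-Co2, mt-Co3, mt-Atp6 and mt-Nd3 hold at most 57 counts per library, as given above, so their tests rest on few reads. By edgeR's quasi-likelihood test with Benjamini-Hochberg adjustment over the 14199 genes tested, none of the 17 passed 0.05 in any of the 3 comparisons. For kFRA against DH-LMP2A, 5.02% of all genes passed, and 2 of the 17 had an unadjusted p under 0.05. For kFRA against WT, 17.8% of all genes passed and 1 of the 17 had such a p. For DH-LMP2A against WT, 12.4% passed and 2 of the 17 had such a p. The share of all genes with an unadjusted p under 0.05 is not given, here or for the nuclear lists below. The percentages are by adjusted p, so the counts by unadjusted p cannot be set against them. DESeq2's Wald test called 1 of the 17 in each comparison, named with its gene below. Of all 14199 genes it called 1405, 3515 and 2528 in the same order. The comparisons share libraries: kFRA and DH-LMP2A are both set against the same 3 WT mice.

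The median log2 fold change of the 17 was 0.07 for kFRA against DH-LMP2A, 0.12 for kFRA against WT and 0.13 for DH-LMP2A against WT. Over all genes tested it was -0.005, -0.04 and -0.01. In each comparison 2 of the 17 had groups whose libraries did not overlap in CPM, against 25.6%, 34.3% and 36.6% of all genes.

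**Figure D3:**
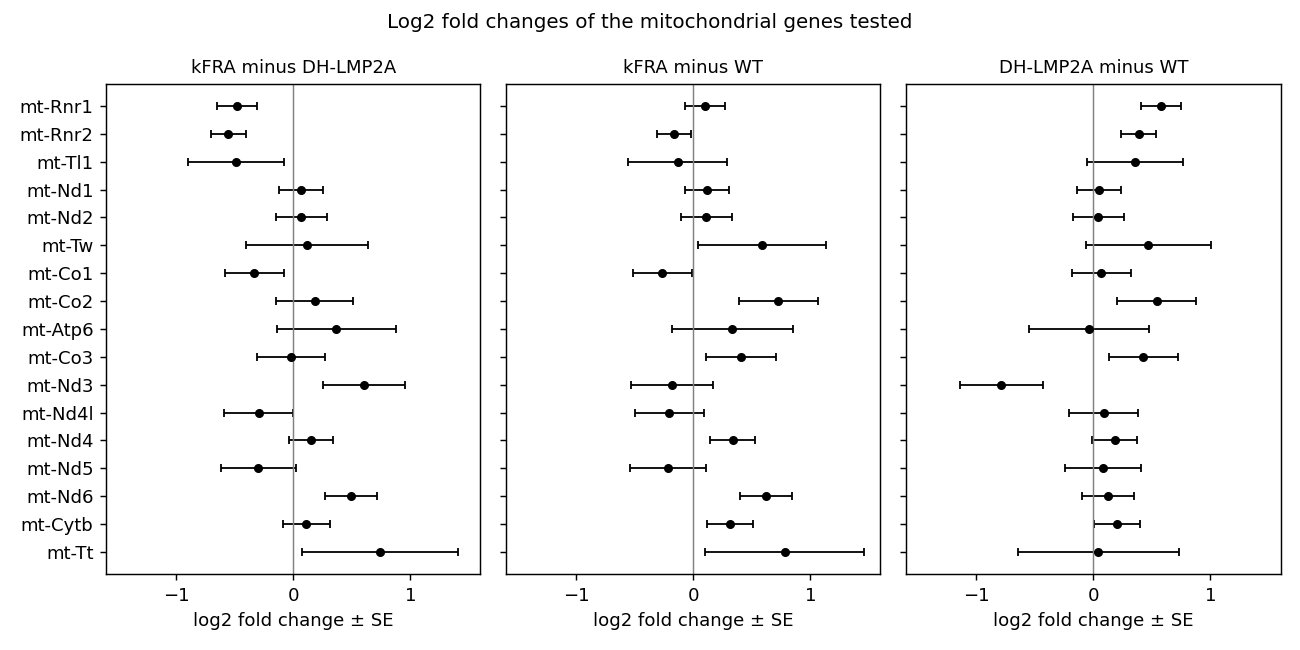
Log2 fold change ± SE of each tested mitochondrial gene in the 3 comparisons, from edgeR, for the 17 rows as named. No gene passed an adjusted p of 0.05. Several genes lie away from 0 by more than their SE. Among them are the rRNAs in the comparisons with DH-LMP2A and mt-Nd6 in those with kFRA. Others are mt-Nd3 for DH-LMP2A against WT and mt-Co2 for kFRA against WT, both rows with few counts.

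The rRNAs were the members with the lowest adjusted p in comparisons with DH-LMP2A. mt-Rnr1 stood at 87.9, 91.3 and 87.5 CPM in DH-LMP2A, 54.4, 53.7 and 83.4 in kFRA and 59.1, 63.4 and 56.4 in WT. The DH-LMP2A libraries lay above all others, with kFRA replicate 3 near them. The log2 fold change for DH-LMP2A against WT was 0.58 ± 0.17 (SE; edgeR adjusted p = 0.0598), and DESeq2's Wald test gave 0.59 with an adjusted p of 0.0253. For kFRA against DH-LMP2A it was -0.48 ± 0.17 (edgeR adjusted p = 0.151). Without kFRA replicate 3 that value was -0.72 with an edgeR adjusted p of 0.0115, in a fit where 411 of 14583 genes passed. Without kFRA replicate 2 it was -0.30 (edgeR adjusted p = 0.24). Leaving out any library other than kFRA replicate 3 gave no call of mt-Rnr1 in this comparison.

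mt-Rnr2 stood at 142.7, 146.9 and 120.0 CPM in DH-LMP2A, 85.5, 87.1 and 106.3 in kFRA and 105.9, 116.4 and 90.4 in WT. Here too DH-LMP2A lay above both other groups without overlap. The log2 fold change was -0.56 ± 0.15 for kFRA against DH-LMP2A (edgeR adjusted p = 0.0707; DESeq2 -0.52, adjusted p = 0.0248) and 0.39 ± 0.15 for DH-LMP2A against WT (edgeR adjusted p = 0.129). As a share of the counts outside immunoglobulin genes, the 2 rRNAs took 0.0356% in DH-LMP2A, 0.0263% in kFRA and 0.0285% in WT. DH-LMP2A was above each other group with exact permutation p = 0.1, the smallest possible, and 0.15 adjusted. The erythroid marker sum of DH-LMP2A was above that of WT without overlap but overlapped that of kFRA. Its highest value, 13640 in DH-LMP2A replicate 3, stood in the library with the lowest rRNA share of that genotype, 0.0323%. A fit with the mean log2 level of the erythroid markers as a covariate was also made. For DH-LMP2A against WT it gave 0.54 ± 0.37 for mt-Rnr1 (edgeR adjusted p = 0.751) and 0.64 ± 0.31 for mt-Rnr2 (edgeR adjusted p = 0.525). The fold changes thus stayed positive with a wider SE. The erythroid sums of these 2 genotypes did not overlap, so this fit can hardly separate genotype from erythroid content. The part of erythroid cells in the rRNA values was not tested.

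mt-Nd6, the complex I subunit encoded on the other strand, had low levels. It stood at 10.5, 9.14 and 10.3 CPM in DH-LMP2A, 16.8, 9.80 and 15.6 in kFRA and 7.45, 9.59 and 10.4 in WT. kFRA replicates 1 and 3 were above every library of the other genotypes, and kFRA replicate 2 lay among them. The log2 fold change for kFRA against WT was 0.62 ± 0.22 (edgeR adjusted p = 0.0836; DESeq2 0.66, adjusted p = 0.0463). Against DH-LMP2A it was 0.49 ± 0.22 (edgeR adjusted p = 0.226). mt-Nd6 overlaps the end of mt-Nd5 on the opposite strand, and the strand setting of the counting is not given in the sources used here.

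Several plus-strand mRNAs showed the opposite order among the kFRA libraries. mt-Nd5, a proton-pumping subunit of complex I, stood at 583.9, 485.7 and 454.8 CPM in DH-LMP2A, 304.4, 651.0 and 283.7 in kFRA and 531.0, 554.1 and 353.1 in WT. mt-Nd4l stood at 116.2, 92.1 and 100.7 in DH-LMP2A, 59.5, 131.2 and 60.8 in kFRA and 92.1, 115.9 and 82.7 in WT. In both genes kFRA replicates 1 and 3 were the lowest of the 9 libraries and kFRA replicate 2 the highest.

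mt-Co1 was also lowest in kFRA replicates 1 and 3, with 3342, 2825 and 3492 CPM in DH-LMP2A, 2156, 3485 and 2017 in kFRA and 3108, 3401 and 2707 in WT. Its log2 fold change was -0.34 ± 0.25 for kFRA against DH-LMP2A (edgeR adjusted p = 0.456) and -0.27 ± 0.25 against WT (edgeR adjusted p = 0.466). With Gm29216 added these became -0.18 ± 0.23 and -0.13 ± 0.23. Neither pair of values differed from 0 beyond the spread between mice.

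With all 3 kFRA libraries these genes did not pass, and the result depended on kFRA replicate 2. Without it, 3 of the 17 passed for kFRA against DH-LMP2A, where 22.7% of all genes did. They were mt-Nd4l, which fell by 0.71 on the log2 scale (edgeR adjusted p = 0.0208), mt-Nd5, which fell by 0.73 (adjusted p = 0.0483), and mt-Nd6, which rose by 0.76 (adjusted p = 0.0185). Against WT, without that library, 2 of the 17 passed, where 38.8% of all genes did. mt-Nd4l fell by 0.62 (edgeR adjusted p = 0.0217) and mt-Nd6 rose by 0.89 (adjusted p = 0.00709). In the same fit mt-Nd4, on the same bicistronic mRNA as mt-Nd4l, did not fall. Its log2 fold change was 0.15 against DH-LMP2A (edgeR adjusted p = 0.64) and 0.34 against WT (edgeR adjusted p = 0.226).

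In mt-Nd1, mt-Nd4, mt-Nd2 and mt-Cytb kFRA replicate 2 was again the highest of the kFRA libraries, but replicates 1 and 3 were not the lowest of the 9. mt-Nd1, a complex I subunit, stood at 566.9, 651.2 and 567.7 CPM in kFRA, against 503.0 to 660.7 in DH-LMP2A and 427.3 to 617.7 in WT. mt-Nd4 stood at 545.5, 660.6 and 617.6 in kFRA, against 482.7 to 634.3 and 390.0 to 583.1. mt-Nd2 stood at 249.7, 366.2 and 264.8, against 243.7 to 324.2 and 206.4 to 318.7. mt-Cytb stood at 1237, 1629 and 1232 in kFRA, above the 917 to 1231 of WT without overlap and overlapping the 1111 to 1401 of DH-LMP2A (log2 fold change against WT 0.31 ± 0.20, edgeR adjusted p = 0.284). In mt-Nd4, mt-Nd2 and mt-Cytb kFRA replicate 2 was the highest of all libraries.

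Gm28661, the near-identical copy of mt-Co2, stood at 1507, 1501 and 1935 CPM in kFRA, 1471, 1269 and 1322 in DH-LMP2A and 1352, 1300 and 1021 in WT. The kFRA libraries were above both other groups without overlap. With mt-Co2 and Gm28661 added together the log2 fold change was 0.28 ± 0.19 against DH-LMP2A (edgeR adjusted p = 0.406) and 0.43 ± 0.19 against WT (edgeR adjusted p = 0.146).

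Ratios between transcripts within a library do not depend on the scaling between libraries. The 11 computed were chosen after the values were seen and are descriptions. Those of mt-Cytb to mt-Nd4, mt-Cytb to mt-Nd1, mt-Nd2 to mt-Nd1, mt-Rnr1 to mt-Rnr2 and Gm13340 to mt-Co1 are not given below. In none of these did kFRA replicates 1 and 3 both lie below, or both above, every DH-LMP2A and WT library. The ratio of mt-Co1 to Gm29216 counts was 1.91 to 1.95 in DH-LMP2A, 1.78 to 1.95 in WT and 1.28, 1.94 and 1.11 in kFRA replicates 1 to 3. Gm29216 covers only the last 483 bases of mt-Co1, and where the reads of the mt-Co1 row fall along the gene cannot be read from a table of counts per gene. The ratio of mt-Nd5 to mt-Nd4 was 0.867 to 1.01 in DH-LMP2A, 0.905 to 1.13 in WT and 0.558, 0.986 and 0.459 in kFRA. The ratio of mt-Nd4l to mt-Nd4 was 0.183 to 0.192 in DH-LMP2A, 0.195 to 0.212 in WT and 0.109, 0.199 and 0.0985 in kFRA. In all 3 ratios kFRA replicates 1 and 3 were below every other library, while kFRA replicate 2 lay within the range of the DH-LMP2A and WT libraries.

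The ratio of mt-Nd1 to mt-Nd4 varied less, with kFRA replicate 3 the lowest, at 1.03 to 1.04 in DH-LMP2A, 1.06 to 1.28 in WT and 1.04, 0.986 and 0.919 in kFRA. The ratio of mt-Nd6 to mt-Nd1 was 0.0158 to 0.0191 in DH-LMP2A, 0.0124 to 0.0244 in WT and 0.0297, 0.0151 and 0.0275 in kFRA. The ratio of the diverged copy Gm13341 to Gm28661 was 0.0218 to 0.0281 in DH-LMP2A, 0.0234 to 0.0282 in WT and 0.0160, 0.0236 and 0.0159 in kFRA. The immunoglobulin share of counts separates the same kFRA libraries, at 44.0% and 45.4% in replicates 1 and 3 and 29.2% in replicate 2, and its part in these ratios was not tested.

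**Figure D4:**
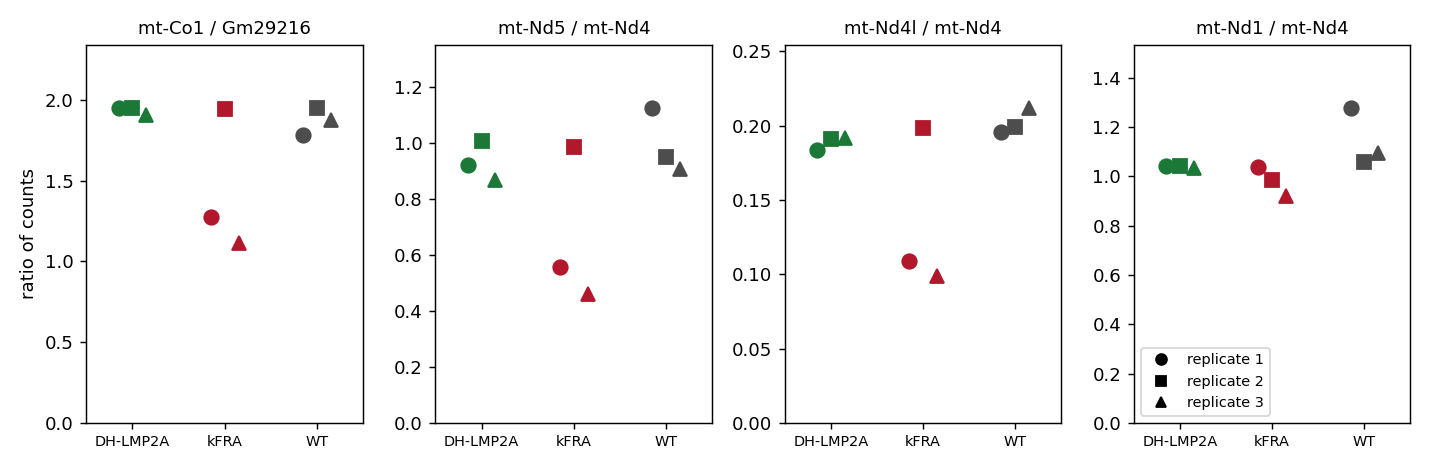
Ratios of counts between mitochondrial transcripts within each library, by genotype; each point is a library. For mt-Co1 to Gm29216, mt-Nd5 to mt-Nd4 and mt-Nd4l to mt-Nd4, kFRA replicates 1 and 3 lie below all other libraries and kFRA replicate 2 does not.

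The composition of the 13 mRNAs was taken as the share of each in their summed counts in the library. Between DH-LMP2A and WT the libraries overlapped for 12 of the 13, and mt-Nd3 was lower in DH-LMP2A. Between kFRA and each of these groups they overlapped for 10 of the 13. No such count was made over other genes. Apart from mt-Co1 and mt-Cytb, given next, mt-Nd2 of kFRA was above DH-LMP2A and mt-Nd4 of kFRA above WT. In kFRA, mt-Co1 took 41.9%, 45.9% and 39.8% of the mRNA counts, below the 47.2% to 52.5% of DH-LMP2A and the 48.8% to 53.1% of WT. mt-Cytb took 24.1%, 21.5% and 24.3%, above the 19.2% to 19.8% and the 17.1% to 19.3% of these groups. Both orders held for all 3 kFRA libraries, replicate 2 included. The shares are parts of one sum, so a lower share of mt-Co1 raises those of the other mRNAs, and the orders are not separate results. In CPM, mt-Cytb of kFRA overlapped DH-LMP2A, as given above. The counts on the near-identical copies are not in this sum, and the copies of mt-Co1, mt-Co2, mt-Co3 and mt-Atp6 hold most of them. For mt-Co1 they were the 22650 to 40573 counts per library on Gm29216. The ratio of mt-Co1 to Gm29216 differed among the kFRA libraries, as given above. The part of that split in the lower mt-Co1 share was not tested.

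With the copies added, mt-Co1 took 33.2% to 37.3% in kFRA, still below the 39.8% to 42.3% of WT but overlapping the 37.0% to 42.2% of DH-LMP2A. mt-Cytb took 10.7% to 11.5% in kFRA, above the 10.04% to 10.3% of DH-LMP2A and the 8.89% to 10.3% of WT. mt-Nd4 was also above both groups, at 4.68% to 5.36% against 4.16% to 4.65% and 3.93% to 4.52%. mt-Atp6 of kFRA was above WT only, at 9.84% to 10.35% against 8.27% to 9.46%. No test was made on these shares.

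Nuclear genes for mitochondrial gene expression and respiration were read in the same fit from 12 lists with 241 genes. Against WT, 3 of the 77 nuclear subunits of complexes I to V rose in kFRA by edgeR and none fell. All 3 were among the 36 of complex I. Over all genes, 6.68% rose and 11.1% fell in that comparison. Against DH-LMP2A none of the 77 passed by edgeR or by DESeq2, where 1.73% of all genes rose and 3.3% fell by edgeR. By unadjusted p under 0.05, for which no share of all genes is given, there were 17 of the 77. The median log2 fold change of the 77 was 0.30 against WT and 0.26 against DH-LMP2A, and that of all genes is given above. Of the mitochondrial ribosomal proteins, 76 of 77 could be tested, and 6 rose against WT and 1, Mrps10, against DH-LMP2A, with none falling.

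Ndufa6, an accessory subunit of complex I, stood at 42.8, 31.4 and 52.6 CPM in kFRA, 34.7, 35.4 and 38.0 in DH-LMP2A and 24.9, 28.1 and 27.96 in WT. It rose against WT by 0.65 ± 0.18 (log2, edgeR adjusted p = 0.0346). Mrpl37, a protein of the large mitochondrial ribosomal subunit, stood at 58.8, 61.3 and 68.8 CPM in kFRA, 49.8, 46.6 and 46.6 in DH-LMP2A and 38.5, 30.8 and 38.4 in WT. It rose against WT by 0.81 ± 0.13 (edgeR adjusted p = 0.00309), and all 3 kFRA libraries were above all others.

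Of the 18 genes for transcription and replication of mitochondrial DNA, 2 rose in kFRA against WT. Against DH-LMP2A none passed by edgeR or DESeq2, and 4 had an unadjusted p under 0.05. The genes that rose were Ssbp1, the single-strand DNA-binding protein, with 0.81 ± 0.19 (edgeR adjusted p = 0.0184), and Mterf1b, a homologue of the termination factor, with 1.22 ± 0.34 (adjusted p = 0.0375). Ssbp1 stood at 55.8, 34.5 and 53.3 CPM in kFRA and 31.7, 24.6 and 25.5 in WT, so the groups did not overlap. Mterf1b stood at only 1.28 to 2.12 CPM in kFRA and 0.573 to 0.918 in WT.

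Of the 19 genes for processing and modification of mitochondrial RNA, 2 rose in kFRA against WT. They were Trmu and Gtpbp3, which modify the wobble base of tRNAs, with 0.76 ± 0.19 (edgeR adjusted p = 0.0242) and 0.49 ± 0.14 (adjusted p = 0.0394). Trmt61b, a methyltransferase, stood at 8.41, 6.47 and 11.9 CPM in kFRA, 2.96, 3.20 and 3.57 in DH-LMP2A and 5.88, 5.82 and 6.31 in WT. It was called in kFRA against DH-LMP2A, at 1.46 ± 0.24 (edgeR adjusted p = 0.00725), and in DH-LMP2A against WT, at -0.89 ± 0.24 (adjusted p = 0.0388). Its exons overlap those of Spdya on the opposite strand, so its counts are uncertain.

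Of the 16 genes for stability and decay 1 rose against WT, Fastk with 0.63 ± 0.13 (edgeR adjusted p = 0.0095), and of the 13 translation factors 1, Tsfm with 0.79 ± 0.22 (adjusted p = 0.0357). Both overlap exons of another gene. Among 12 genes taken as a measure of mitochondrial mass none passed by edgeR in any comparison, with 0, 1 and 1 at an unadjusted p under 0.05 and 0, 1 and 0 called by DESeq2, and medians of 0.12, 0.01 and -0.03 in the order of comparisons above. Of the 8 biogenesis regulators tested of 9, Myc fell in kFRA against WT by 0.94 on the log2 scale (edgeR adjusted p = 0.0195). It stood at 7.52, 9.09 and 10.04 CPM in kFRA and 20.9, 13.7 and 16.4 in WT. For DH-LMP2A against WT no list held a called gene except Trmt61b by edgeR, where 5.07% of all genes rose and 7.3% fell. Of the 77 respiratory subunits 4 had an unadjusted p under 0.05 in that comparison, and DESeq2 called 1.

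Each of the 6 libraries of a comparison was left out in turn for the called genes named above and for Ndufs7 and Mrpl24, which the naming rule also holds. Every log2 fold change kept its direction, while many calls were lost. Mrpl37 against WT (log2 fold change 0.71 to 0.90) and Trmt61b against DH-LMP2A (1.19 to 1.71) passed all 6 times by edgeR. Fastk (0.57 to 0.79) and Mrpl24 (0.66 to 1.03, 0.79 with all libraries), whose exons overlap those of Rrnad1 on the opposite strand, lost the call only without WT replicate 2. Myc lost it without kFRA replicate 1 or WT replicate 1 (-1.07 to -0.76). Ssbp1 passed only without kFRA replicate 2 or WT replicate 1 (0.69 to 1.07).

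The other genes passed only without kFRA replicate 2 and lost the call whichever other library was left out. Against WT their log2 fold changes over the 6 fits were 0.46 to 0.89 for Ndufa6, 0.44 to 0.86 for Ndufs7, a complex I core subunit (0.62 with all libraries), 0.61 to 1.02 for Trmu, 0.42 to 0.63 for Gtpbp3, 0.52 to 1.06 for Tsfm and 1.06 to 1.47 for Mterf1b. Against DH-LMP2A that of Mrps10 was 0.69 to 0.97, and 0.79 with all libraries. Trmt61b in DH-LMP2A against WT did not pass in any of the 6 (edgeR adjusted p 0.0815 to 0.146), although its log2 fold change stayed at -0.95 to -0.83.

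The list counts depended on kFRA replicate 2. Without it, 40 of the 77 nuclear respiratory subunits rose against DH-LMP2A (51.9%, with 22.7% of all genes called in either direction) and 55 rose against WT (71.4%, with 38.8% of all genes called). None fell in either comparison. For complex I alone it was 24 and 31 of 36, and for the mitochondrial ribosome 37 and 51 of 76. The medians of the 77 were then 0.48 and 0.54. Leaving out any other single library gave 0 to 2 of the 77 against WT and 0 against DH-LMP2A. Of all genes, 1271 to 2086 and 352 to 521 passed in those fits, out of 14448 to 14583 tested. Scaling by library size alone called 49 of the 77 against WT, where 3280 of the 14199 genes passed, 2363 of them higher. That scaling also moved the median log2 fold change of all genes by 0.21 in that comparison.

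**Figure D5:**
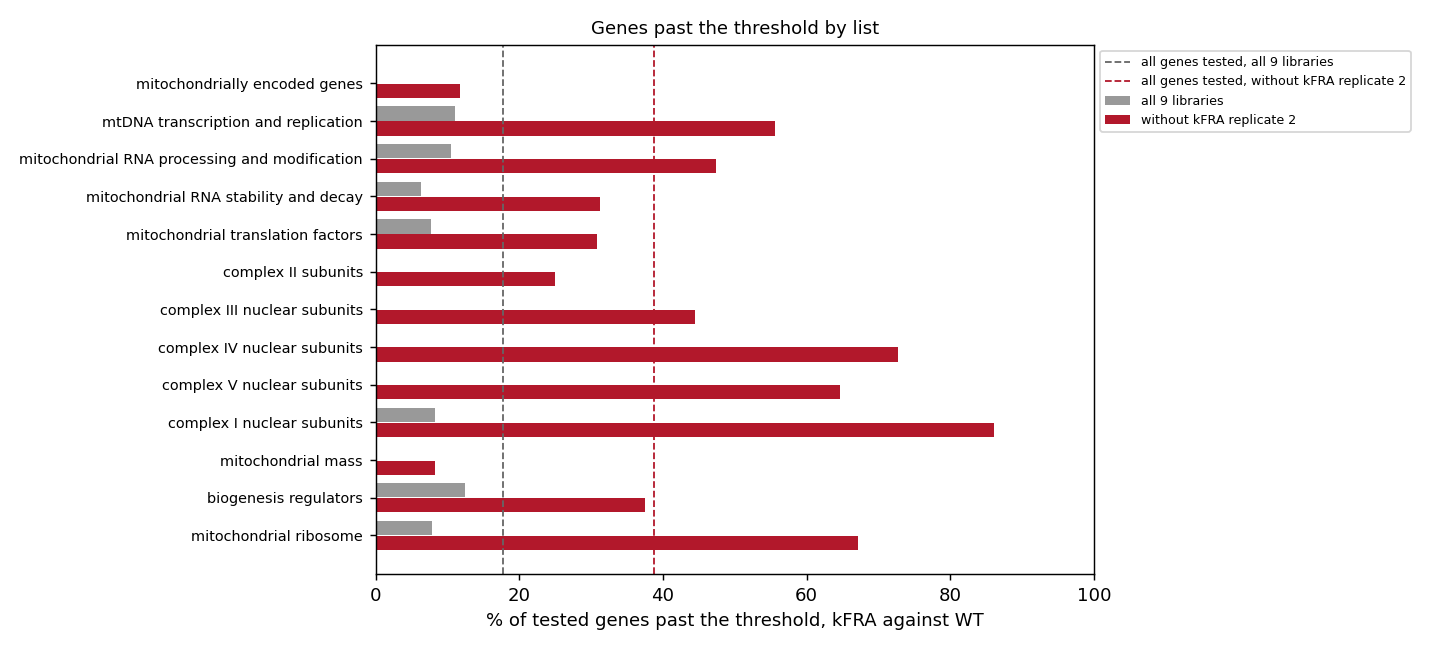
Percent of tested genes past an adjusted p of 0.05 for kFRA against WT, in the mitochondrially encoded genes and in each nuclear list, with all 9 libraries (grey) and without kFRA replicate 2 (red); dashed lines give the percent of all genes tested. All called genes rose except Myc in the biogenesis regulators in the fit of all libraries and, without replicate 2, 3 biogenesis regulators, 1 mass gene, 1 stability gene and mt-Nd4l.

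The 12 tested mitochondrial mRNAs, with the copies added and without kFRA replicate 2, had a median log2 fold change of 0.14 against WT, from -0.64 for mt-Nd5 to 0.89 for mt-Nd6. Against DH-LMP2A their median was -0.02, from -0.73 for mt-Nd5 to 0.76 for mt-Nd6. The medians of the 77 nuclear subunits without that library are given above, and the difference between the 2 sets was not tested. Markers of plasma cells, B cells, myeloid cells and erythroid cells moved in the comparison with WT. Without kFRA replicate 2, the summed CPM of the B cell markers was 232 to 253 in kFRA and 333 to 658 in WT, and 6 of the 8 fell by edgeR. The myeloid sum was 1193 to 1209 in kFRA and 2396 to 4012 in WT, with 5 of 8 markers falling, and 5 of the 8 erythroid markers rose. The plasma cell sum was 28060 to 29460 in kFRA and 18210 to 23350 in WT, with 2 of 8 markers rising and 1 falling. Their part in the nuclear or mitochondrial values was not tested.

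With the erythroid covariate and all 9 libraries, none of the 77 nuclear subunits passed by edgeR in any comparison. Their median log2 fold change was then 0.25 for kFRA against WT and 0.29 against DH-LMP2A, close to the values without the covariate. Fewer of all genes passed too, 639 in place of 2523 for kFRA against WT. The erythroid sums of kFRA and WT did not overlap either, so this fit can hardly separate genotype from erythroid content. Trmt61b kept its call in kFRA against DH-LMP2A by edgeR.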

How the data were processed

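The authors deposited 1 table of raw read counts per gene for 9 libraries, with gene lengths and exon coordinates, per the file headers. STAR 2.4.0a, featureCounts (Subread 1.5.0-p3) and DESeq2 and the builds mm10 and GRCm38 are named, without role, in the submitters' processing notes. The annotation, strand setting and treatment of multiply matching or overlapping reads are not given in the sources used here. The 37 genes and their 7 copies had the same coordinates in GENCODE M21 (44 of 44), whose transcripts gave the sequences. Copies were found with BLAST 2.17.0 (at least 90% identity over 75 bases). The test was edgeR's (4.0.16, R 4.3.3): filterByExpr, TMM, 1 coefficient per genotype over all 9 libraries, quasi-likelihood test, Benjamini-Hochberg over 14199 genes, threshold 0.05. The SE is the absolute log2 fold change divided by the square root of F. DESeq2 1.42.0 was an alternative. Shares were compared by exact permutation tests (scipy 1.17.1). The code was tested on simulated data. Each library is 1 mouse. Replicates differed by more than sampling noise (chi-square per degree of freedom 17.3 to 164). Replicate numbers in the titles did not pair libraries.

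Named were all mitochondrial mRNAs and rRNAs, tRNAs that passed the filter, and up to 2 genes with the smallest p per nuclear list and comparison. The members and lists were chosen with earlier results of these data known. Ratios and the addition of copies were chosen after seeing the data. The nuclear list genes given as uncertain overlap exons of another gene in GENCODE M21.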

Additional observations from a re-analysis of the deposited data

How the results depend on the processing

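The differences in mitochondrial share were close to 0 and changed sign with the processing. For kFRA minus DH-LMP2A the value was -0.0329 percentage points, 0.0861 with copies added, and -0.185 to 0.0514 when 1 replicate was left out. For kFRA minus WT it was -0.0554, 0.0826 over all counts, 0.0403 with copies added, and -0.208 to 0.0289 when 1 replicate was left out. For DH-LMP2A minus WT it was -0.0225, 0.198 over all counts, 7.95 percent of the mean as summed TMM CPM, and -0.107 to 0.0458 when 1 replicate was left out. The count of mitochondrial genes past the threshold was 0 in each comparison. For kFRA against DH-LMP2A it was 0 to 3 when 1 replicate was left out, 3 with copies added and kFRA replicate 2 left out, and 1 by DESeq2. For kFRA against WT it was 0 to 2 when 1 replicate was left out, 2 with copies added and kFRA replicate 2 left out, 1 with library size alone (mt-Nd6) and 1 by DESeq2. For DH-LMP2A against WT it was 2 with library size alone (mt-Rnr1, mt-Rnr2) and 1 by DESeq2. Library size alone moved the median log2 fold change of all genes by 0.34 (DH-LMP2A minus WT), 0.21 (kFRA minus WT) and -0.13 (kFRA minus DH-LMP2A). In that order it moved the share of higher calls from 41% to 79.9%, 37.6% to 72% and 34.4% to 26%. Over all genes, 713 passed for kFRA against DH-LMP2A, 443 with the erythroid covariate, 1405 by DESeq2's Wald test, 3299 with copies added and without kFRA replicate 2, and 352 to 3299 when 1 replicate was left out. For kFRA against WT 2523 passed, 639 with that covariate, 5631 with copies added and without kFRA replicate 2, and 1271 to 5632 when 1 replicate was left out. For DH-LMP2A against WT 1756 passed, 228 with that covariate and 932 to 1408 when 1 replicate was left out. The cause of these moves was not tested. Of 2179 values of single genes under alternatives, 1994 kept their side of the threshold, 69 lost the call, 116 gained it and none reversed a call. Same-numbered libraries correlated between -0.211 and 0.196 over 9 pairs, and 1 library correlated best with its own number. With the replicate number as a block, 0 mitochondrial genes passed in each comparison, and 685, 2930 and 2067 of all genes. Depth limits the tRNAs, mt-Atp8 and the rows of mt-Co2, mt-Co3, mt-Atp6 and mt-Nd3.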
